A study of Homo sapiens with 6 samples.

Results

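The endoplasmic reticulum (ER) chaperones and the genes of the unfolded protein response were followed as 34 named genes, each found by its symbol in 1 row of a count table of 37923 genes. They comprised 7 stress sensors and transcription factors, 11 chaperones and co-chaperones, 8 disulphide isomerases and oxidases, 6 genes of ER-associated degradation and 2 of protein translocation. RNA was sequenced from 3 ENZ and 3 Control samples, all labelled RKO, an established line from a human colorectal carcinoma. ENZ cells are described as having received A3, which the design text names as a degrader of the histone demethylase LSD1. RNA was taken at 48 h. Samples of a group are called biological replicates in the design text. The sources used here give neither the dose, nor what the Control cells received, nor the meaning of ENZ.

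Secreted and membrane proteins fold in the ER, where HSP70- and HSP90-type chaperones, lectin chaperones and disulphide isomerases act on them. Proteins that fail to fold are sent back to the cytosol and degraded. When unfolded proteins build up, the sensors ERN1 (IRE1), EIF2AK3 (PERK) and ATF6 start the unfolded protein response. ERN1 splices the XBP1 transcript so that it encodes an active transcription factor, ATF6 is cut free from the membrane to act as one, and EIF2AK3 phosphorylates a translation initiation factor and so favours translation of ATF4. Secretory tissues keep this machinery at a high level.

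The label was checked against marker genes before the results. Levels are given as CPM, counts scaled to a common library total after TMM correction, unless FPKM (scaled by gene length as well) is named. Of 10 colorectal epithelial markers, 9 were in the table, of which 6 had a mean under 1 CPM and 2 a mean over 10 CPM. CDX1, KRT20 and GPA33 had at most 2 counts in any library, and VIL1 averaged 58.6 ± 1.96 CPM in ENZ and 39.4 ± 1.2 CPM in Control (SD, n = 3 each). Of 11 prostate luminal markers, 8 had a mean over 10 CPM, among them FOLH1 at 868.3 ± 6.26 CPM in ENZ and 618.9 ± 2.49 CPM in Control. They moved in both directions, with 5 called lower and 4 higher of 11 (calls are defined below). Over all tested genes 39.8% were called in either direction. Log2 fold changes of the 11 ran from -1.69 for SLC45A3 to 0.75 for TMPRSS2 (median -0.17). The summed level of that list was 2070 to 2090 CPM in ENZ libraries and 1940 to 1970 CPM in Control libraries, and that of the colorectal list was 123 to 130 CPM in ENZ and 110 to 115 CPM in Control. Their part in the results below was not tested. Prostate luminal markers were therefore abundant in all 6 libraries, so the cell identity given by the label is in doubt. Most listed colorectal markers were under 1 CPM. These data do not show which of them RKO cells express, so their low level cannot decide the question. The label is used below only as a name. Whether the cells received the described treatment was not tested. Plasma and secretory cell markers summed to 162 to 172 CPM in ENZ and 159 to 162 CPM in Control, with SDC1 and SPDEF the only 2 of 10 over 10 CPM. Of the 5 that could be tested, SDC1 was called higher (0.44) and ATOH1 lower (-3.12; 0.234 CPM in ENZ and 2.08 CPM in Control). Leukocyte, fibroblast and endothelial markers summed to 13.5 to 14.9 CPM in ENZ and 13.9 to 15.7 CPM in Control. Of the 13 in the table, 11 averaged under 1 CPM and 1 over 10 CPM. Only 3 of them could be tested, of which 1 was called lower (-2.66) and 0 higher. CD3E and KDR were at 0 in every library, which allows up to 0.0999 to 0.112 CPM per library for counting error. Library totals were 26756840 to 30025543 counts in ENZ and 26691289 to 28207612 counts in Control.

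Promoters are shown for 3 of the 4 chaperones with the largest falls and for XBP1, which was not called, since all hold known ER stress elements. RefSeq promoter windows (GRCh38.p14, 250 bases before to 50 after the gene start) were found for 33 of the 34 members. The windows were searched on both strands for the ER stress response element ERSE, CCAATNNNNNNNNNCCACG, which ATF6 is known to bind together with the CCAAT-binding factor NF-Y. They were also searched for ERSE-II, ATTGGNCCACG, and for the core of the unfolded protein response element (UPRE), TGACGTGG. Only exact matches were counted, so elements that differ from these letters by a base were missed. The 250 bases upstream of HSPA5, HSP90B1, HYOU1 and XBP1 follow, 5′ to 3′ along the gene's own strand, with matches to any of the 3 motifs in capitals.
HSPA5, chr9:125241344-125241593, minus strand: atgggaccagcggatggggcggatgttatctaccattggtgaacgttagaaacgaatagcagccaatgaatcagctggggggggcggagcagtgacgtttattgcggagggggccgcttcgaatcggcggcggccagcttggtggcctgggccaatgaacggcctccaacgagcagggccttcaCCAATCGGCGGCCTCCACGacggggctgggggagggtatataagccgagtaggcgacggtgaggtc
HSP90B1, chr12:103930160-103930409, plus strand: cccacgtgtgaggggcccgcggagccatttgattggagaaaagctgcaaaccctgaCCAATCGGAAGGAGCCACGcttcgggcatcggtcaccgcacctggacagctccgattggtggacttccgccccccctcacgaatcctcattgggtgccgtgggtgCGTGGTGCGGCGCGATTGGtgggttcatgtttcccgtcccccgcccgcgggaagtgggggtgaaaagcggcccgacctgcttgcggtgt
HYOU1, chr11:119057206-119057455, minus strand: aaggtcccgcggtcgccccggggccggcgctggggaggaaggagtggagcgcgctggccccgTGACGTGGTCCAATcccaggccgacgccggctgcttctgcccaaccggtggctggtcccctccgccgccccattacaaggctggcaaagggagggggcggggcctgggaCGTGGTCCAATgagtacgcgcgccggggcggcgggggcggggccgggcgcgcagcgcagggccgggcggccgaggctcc
XBP1, chr22:28800570-28800819, minus strand: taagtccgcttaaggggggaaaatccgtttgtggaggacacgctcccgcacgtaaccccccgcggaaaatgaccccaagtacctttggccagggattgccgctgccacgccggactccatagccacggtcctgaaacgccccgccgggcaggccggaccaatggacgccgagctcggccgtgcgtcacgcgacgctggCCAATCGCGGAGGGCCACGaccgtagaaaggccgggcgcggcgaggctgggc
HSPA5 held 1 exact match to the ERSE from position -66 to -48 relative to the gene start, HSP90B1 held 2, and XBP1 held 1 from -52 to -34. HYOU1 held 2 matches to ERSE-II and 1 to the UPRE core, which shared 5 bases with the upstream ERSE-II. Another 5 members held an ERSE, written here 5′ to 3′ along the motif with its fixed bases in capitals.
CALR: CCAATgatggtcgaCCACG
CANX: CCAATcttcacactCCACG
CRELD2: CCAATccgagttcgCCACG
ERO1B: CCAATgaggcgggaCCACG
SERP1: CCAATtcgctgtctCCACG
In all, 8 of 33 members (24.2%) held an ERSE, against 22 of 27305 promoters of the same length (0.0806%). ERSE-II was found in 3 members (HYOU1, SDF2L1 and HERPUD1; 9.09%) and in 0.0549% of all promoters. The UPRE core was found in 1 member (3.03%) and in 0.795% of all promoters. These genes are known as ER stress genes and the elements were described on such promoters, so the shares describe the list and are no result of this experiment. A match describes the letters of the window and is neither evidence of binding nor of a cause, and PDIA3 had no entry. Among the members with an ERSE, 7 of 8 were called lower in ENZ, with a median log2 fold change of -0.36. Among the 25 without one, 19 were called lower, with a median of -0.28. Of all tested genes 19.3% were called lower. Whether members with and without an ERSE differed was not tested. The member with an ERSE that was not called was XBP1.

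**Figure D1:**
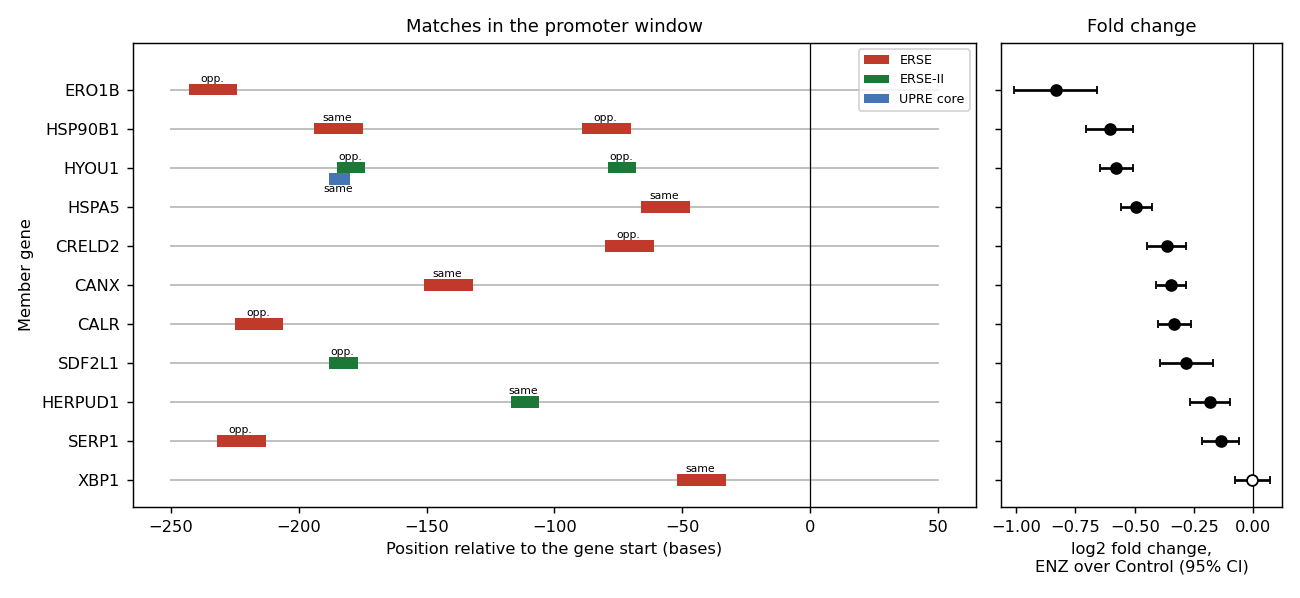
Left, matches to the ERSE, ERSE-II and UPRE core in the promoter windows of the 11 members with any match (x axis, bases relative to the gene start; "same" and "opp." give the strand relative to the gene). Right, the log2 fold change of ENZ over Control with its 95% confidence interval (filled, called, and open, not called). Of these members 10 were called lower, against 19.3% of all tested genes, and XBP1 lies near 0.

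Across the whole list, transcripts of the folding machinery were lower in ENZ while the 7 sensors and transcription factors were not lower as a group. Whether these groups of genes differed was not tested. Of the 34 members, all of which passed the filter on low counts, 27 were called lower and 3 higher, and 4 were not called. A gene was called at a Benjamini-Hochberg adjusted p under 0.05, taken over 18581 genes tested by the quasi-likelihood method of edgeR. Of all tested genes 19.3% were called lower and 20.5% higher, or 39.8% in either direction. A log2 fold change under -0.5 with a call was found for 7 members, HSP90B1, HYOU1, DNAJC3, PDIA4, AGR2, AGR3 and ERO1B, and for 7.37% of tested genes. One over 0.5 with a call was found for CREB3L1 and for 3.82% of tested genes. The median log2 fold change (ENZ over Control) was -0.29 over the members and -0.01 over all tested genes. The values of ENZ lay below all Control values for 28 members, which held for 24.0% of tested genes, and above all Control values for 3 members, which held for 25.3%. The members took 0.906% to 0.919% of all counts in ENZ libraries and 1.21% in each Control library, and summed to 9115 to 9368 CPM in ENZ libraries and 11903 to 12001 CPM in Control libraries. All fold changes and adjusted p-values below are from that test, errors of fold changes are standard errors, and intervals are 95% confidence intervals. In bulk RNA, fewer cells with a transcript and less of it per cell cannot be told apart.

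**Figure D2:**
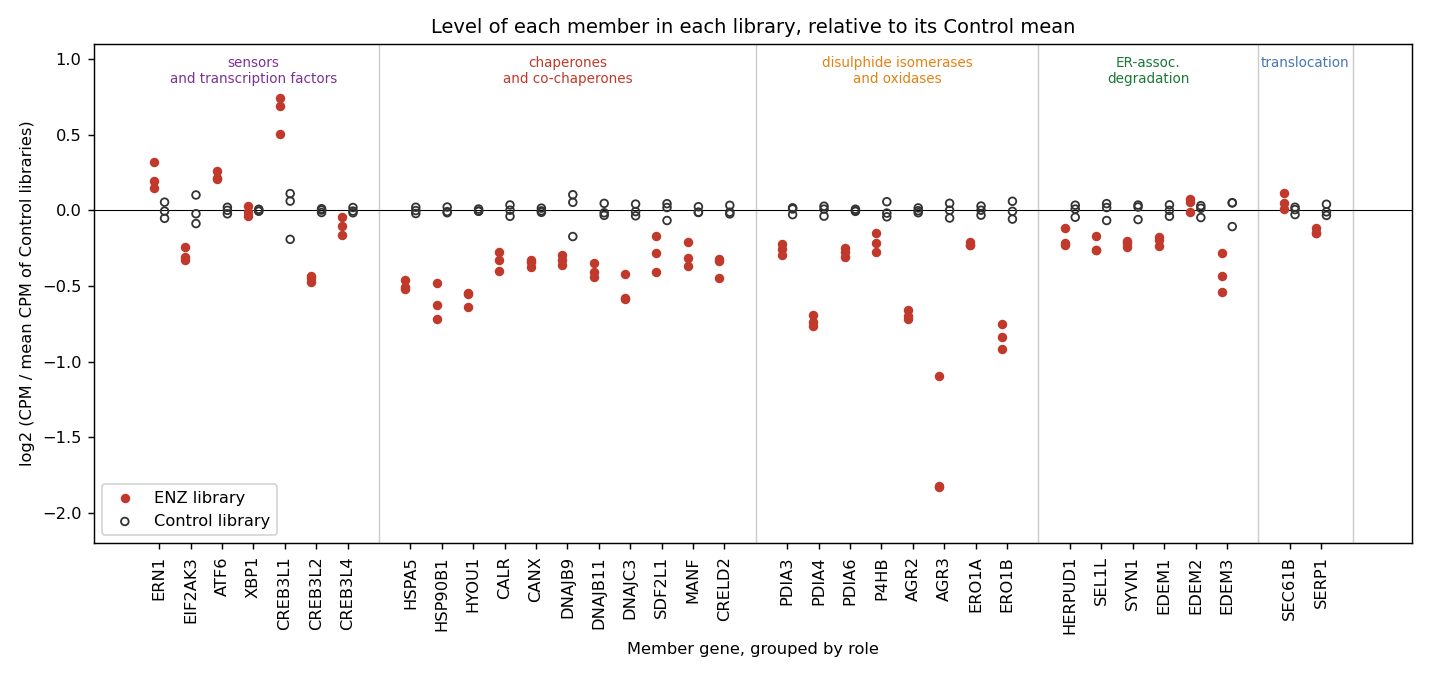
Level of each of the 34 members in each library, as log2 of its CPM over the mean CPM of the Control libraries (y axis), grouped by role (x axis; filled, ENZ libraries, left of the open Control libraries). The ENZ points lie below all Control points for 28 members and above them for ERN1, ATF6 and CREB3L1; XBP1, EDEM2 and SEC61B overlap.

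The sensors and transcription factors moved in both directions, with 3 called higher and 2 lower of 7 and a median log2 fold change of -0.01. ERN1, the kinase and nuclease that splices XBP1, had 39.5, 40.7 and 44.4 CPM in ENZ libraries and 35.4, 36.9 and 34.3 CPM in Control libraries. It rose by 0.23 ± 0.06 on the log2 scale (adjusted p = 0.00376). Every ENZ library lay above every Control library, but in limma on log2(FPKM + 1) values the call ended (adjusted p = 0.098). ATF6, the sensor that becomes a transcription factor, had 128.1, 123.9 and 123.6 CPM in ENZ and 105.3, 107.0 and 108.5 CPM in Control. Its groups did not overlap, and it rose by 0.23 ± 0.04 (adjusted p = 9.79e-05). EIF2AK3, the kinase PERK, went the other way, with 23.3, 23.0 and 24.4 CPM in ENZ and 27.2, 28.4 and 31.0 CPM in Control. It fell by 0.29 ± 0.07 (adjusted p = 0.00113), and its groups did not overlap either; on unfiltered log2(FPKM + 1) values its call ended (adjusted p = 0.0917).

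XBP1, the factor downstream of ERN1, had 226.0, 230.2 and 236.5 CPM in ENZ and 231.1, 230.9 and 232.9 CPM in Control. The groups overlapped, and the log2 fold change was -0.01 with an interval from -0.08 to 0.07 (adjusted p = 0.932). With offsets for GC content and transcript length it was 0.11 with a call (adjusted p = 0.00379). Counts per gene do not separate the spliced from the unspliced transcript, so splicing by ERN1 was not measured.

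The 3 CREB3-like members encode transcription factors that, like ATF6, are held in the ER membrane until they are cut. CREB3L1 (OASIS) had 9.28, 8.19 and 9.65 CPM in ENZ and 6.01, 5.05 and 6.22 CPM in Control, from 138 to 278 counts per library. It rose by 0.65 ± 0.11 (adjusted p = 5.26e-05), with no overlap of the groups. CREB3L2 had 116.3, 118.7 and 119.4 CPM in ENZ and 160.0, 161.8 and 162.8 CPM in Control. It fell by 0.45 ± 0.04 (adjusted p = 4.41e-09), again with no overlap, so that these relatives were called in opposite directions. CREB3L4 averaged 75.3 ± 3.00 CPM in ENZ and 80.9 ± 0.999 CPM in Control and was not called, at a log2 fold change of -0.10 (interval -0.20 to -0.01; adjusted p = 0.0763). It was called lower on library totals alone (adjusted p = 0.0162) and in 5 other alternatives, and it overlaps JTB and SLC39A1 on the other strand, whose reads this library kit does not keep apart.

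The chaperones and co-chaperones fell as a whole, with 11 of 11 called lower and log2 fold changes between -0.61 and -0.28. Their summed level was 5584 to 5729 CPM in ENZ libraries and 7541 to 7641 CPM in Control libraries. HSPA5 (BiP), the HSP70 of the ER that also keeps the sensors inactive, had 1139, 1146 and 1186 CPM in ENZ and 1607, 1629 and 1654 CPM in Control. The 3 ENZ libraries lay well below the Control libraries, at 0.710 times their level (log2 fold change -0.49 ± 0.03, adjusted p = 3.56e-11). HSP90B1 (GRP94), the HSP90 of the ER, had 741.9, 671.5 and 630.3 CPM in ENZ and 1053, 1031 and 1026 CPM in Control. It fell by 0.61 ± 0.05 (adjusted p = 1.13e-07), with ENZ replicate 1 the highest of the ENZ libraries and still below every Control library. Processed pseudogenes of HSP90B1 and PDIA3 are known, so reads of these genes could have been divided between copies.

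The members that work with HSPA5 were also called lower, whereas its other exchange factor SIL1, not a member and picked after its value was seen, was not called (0.09, adjusted p = 0.297). HYOU1 (GRP170), an exchange factor that helps HSPA5 to release its nucleotide, had 444.4, 471.4 and 472.5 CPM in ENZ and 688.9, 695.2 and 687.9 CPM in Control. It fell by 0.58 ± 0.03 (adjusted p = 9.81e-12), and the groups did not overlap. DNAJC3 (P58IPK), a J-domain co-chaperone, had 133.4, 119.0 and 119.3 CPM in ENZ and 177.4, 174.0 and 183.6 CPM in Control. It fell by 0.53 ± 0.05 (adjusted p = 5.47e-09), also without overlap. The other J-domain members, DNAJB11 (ERdj3) and DNAJB9 (ERdj4), fell by 0.40 and 0.33, and the call of DNAJB9 ended with GC and length offsets (log2 fold change -0.14, adjusted p = 0.0593). SDF2L1, which works with DNAJB11, fell by 0.28, and MANF, a secreted protein that binds HSPA5, by 0.29. CRELD2, a secreted ER stress protein, fell by 0.37.

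The lectin chaperones of the glycoprotein folding cycle were the third kind. CALR (calreticulin), in the ER lumen, averaged 1576 ± 66.3 CPM in ENZ and 1985 ± 51.6 CPM in Control and fell by 0.33 ± 0.03 (adjusted p = 1.08e-07). CANX (calnexin), its membrane-bound relative, averaged 1063 ± 15.9 CPM in ENZ and 1352 ± 13.5 CPM in Control and fell by 0.35 ± 0.03 (adjusted p = 1.02e-08).

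The disulphide isomerases and oxidases were also all called lower, 8 of 8, over a wider range of log2 fold changes, from -1.55 to -0.21. PDIA4 (ERp72), a disulphide isomerase encoded on chromosome 7 (chr7:149003062-149028662, minus strand, GRCh38), had 338.9, 345.3 and 355.2 CPM in ENZ and 577.8, 585.6 and 559.5 CPM in Control. Its ENZ libraries lay at 0.603 times the Control level, with a log2 fold change of -0.73 ± 0.03 (adjusted p = 2.2e-13). The other classical isomerases fell less in size, PDIA6 by 0.28, PDIA3, which serves the lectin chaperones, by 0.26, and P4HB, which is also a subunit of collagen prolyl hydroxylase, by 0.21. Their intervals, which reached no lower than -0.35, did not meet that of PDIA4 (-0.80 to -0.66).

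AGR2 and AGR3, isomerase-family proteins of secretory epithelia whose genes lie 25978 bases apart on the minus strand of chromosome 7 (chr7:16791811-16833433 and chr7:16859412-16881987, GRCh38), were both lower. AGR2, which mice need to make mucin, had 155.6, 162.2 and 157.6 CPM in ENZ and 253.4, 259.0 and 255.7 CPM in Control. It fell by 0.69 ± 0.04 (adjusted p = 1.27e-12), without overlap. AGR3 was rare, at 1.07, 1.78 and 1.08 CPM in ENZ and 3.67, 3.80 and 3.93 CPM in Control, from 31 to 106 counts per library. It fell by 1.55 ± 0.19 (adjusted p = 8.94e-07), the largest fall among the members and the only one past an absolute log2 fold change of 1, a limit that 2.98% of tested genes passed with a call.

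The oxidases ERO1A and ERO1B, which return the isomerases to their oxidised form, fell by unequal amounts. ERO1A averaged 72.2 ± 0.615 CPM in ENZ and 84.2 ± 1.75 CPM in Control and fell by 0.22 ± 0.04 (adjusted p = 3.11e-04). With GC and length offsets that call ended, at a log2 fold change of -0.07 (adjusted p = 0.123). ERO1B had 8.84, 8.34 and 7.91 CPM in ENZ and 14.9, 14.3 and 15.6 CPM in Control, with no overlap, and fell by 0.83 ± 0.09 (adjusted p = 8.42e-08). ERO1B overlaps GPR137B on the other strand, and reads from the shared stretch cannot be assigned to either gene with certainty.

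Ratios of paralogous members within each library, which do not depend on scaling between libraries, were compared for 5 pairs. The log2 ratio of ERO1A to ERO1B counts was 3.11 ± 0.07 in ENZ and 2.50 ± 0.03 in Control (SD, n = 3 each; exact two-sided permutation test, p = 0.1, adjusted p = 0.125). That of AGR2 to AGR3 was 6.96 ± 0.39 in ENZ and 6.08 ± 0.04 in Control, with the same exact p. With 3 libraries a group no p below 0.1 can be reached, so these tests could not pass the threshold. In both pairs, and for EDEM1 over EDEM2 (-0.24, ENZ minus Control) and EDEM1 over EDEM3 (0.22), the groups did not overlap. Of single tested genes, 24.0% had every ENZ library below every Control library and 25.3% above. The share of separate ratios over other gene pairs was not computed, so no result is drawn from the missing overlap. For DNAJB11 over DNAJB9 the groups did overlap (-0.08, exact permutation p = 0.4).

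**Figure D3:**
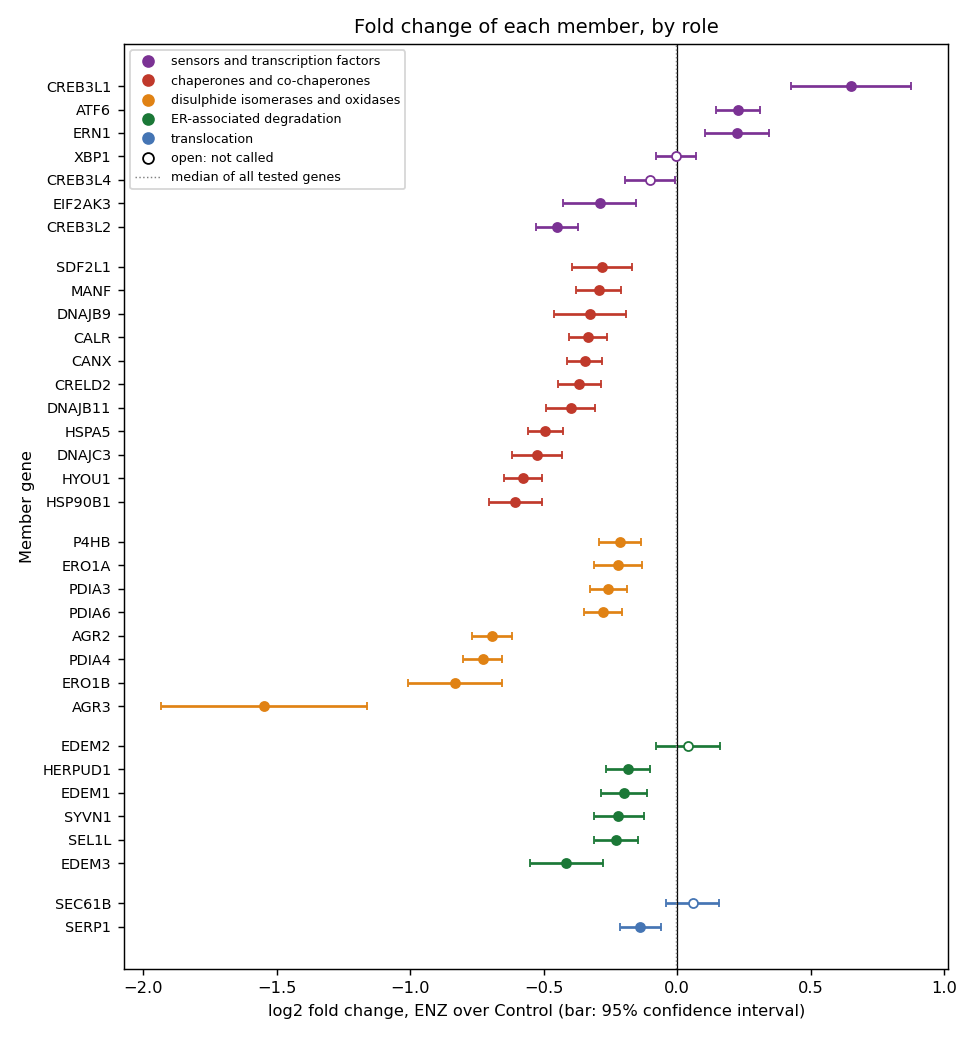
Log2 fold change of ENZ over Control for each member (x axis) with its 95% confidence interval, ordered by size within each role (filled, called; open, not called; dotted line, median of all tested genes). All chaperones, isomerases and oxidases lie below 0, while the sensors and transcription factors spread from -0.45 for CREB3L2 to 0.65 for CREB3L1.

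Of the 6 genes of ER-associated degradation 5 were called lower. Their log2 fold changes ran from -0.42 for EDEM3 to 0.04 for EDEM2 (median -0.21). Whether they differed from the chaperones was not tested. SEL1L and SYVN1 (HRD1) form the membrane ligase complex that passes misfolded proteins to the proteasome. SEL1L had 230.8, 216.4 and 215.7 CPM in ENZ and 267.3, 247.4 and 262.5 CPM in Control, and fell by 0.23 ± 0.04 (adjusted p = 8.26e-05). SYVN1 had 72.0, 70.9 and 72.6 CPM in ENZ and 85.7, 85.0 and 80.2 CPM in Control, and fell by 0.22 ± 0.05 (adjusted p = 4.9e-04). Neither overlapped between groups, although SYVN1 overlaps FAU and MRPL49, which had more counts than it did, and its reads are uncertain for that reason. HERPUD1, a membrane partner of that complex, fell by 0.18.

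The 3 EDEM genes, which encode mannose-trimming proteins that mark glycoproteins for degradation, were not all called. EDEM3 had 154.0, 138.6 and 128.7 CPM in ENZ and 193.9, 173.9 and 193.9 CPM in Control, and fell by 0.42 ± 0.06 (adjusted p = 2.44e-04). EDEM1 had 99.9, 95.8 and 98.6 CPM in ENZ and 112.8, 109.8 and 115.7 CPM in Control, and fell by 0.20 ± 0.04 (adjusted p = 5.62e-04). Groups were separate for both. EDEM2 averaged 31.8 ± 1.00 CPM in ENZ and 30.9 ± 0.877 CPM in Control, with overlap and a log2 fold change of 0.04 (interval -0.08 to 0.16; adjusted p = 0.611).

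Of the 2 translocation members, SERP1 (RAMP4), a small protein at the translocon, had 167.0, 167.2 and 171.0 CPM in ENZ and 181.2, 184.2 and 190.7 CPM in Control. It fell by 0.14 ± 0.04 (adjusted p = 0.00524) without overlap, and without Control replicate 3 the call ended (adjusted p = 0.0529). Its locus overlaps EIF2A and SELENOT on the other strand. SEC61B, a subunit of the translocation channel, averaged 64.7 ± 2.50 CPM in ENZ and 62.1 ± 1.06 CPM in Control, with overlap and a log2 fold change of 0.06 (interval -0.04 to 0.16; adjusted p = 0.348). With GC and length offsets it was called higher, at 0.12 (adjusted p = 0.0123).

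Per gene length, mean levels over all libraries ran from 0.759 FPKM for ERO1B to 635 FPKM for CALR. CALR led in both groups, at 554.8 ± 19.5 FPKM in ENZ and 715.9 ± 15.9 FPKM in Control. It was followed by HSPA5 at 174.9 ± 2.83 FPKM in ENZ and 252.4 ± 3.46 FPKM in Control, and by PDIA4 at 103.7 ± 1.76 FPKM in ENZ and 176.0 ± 3.83 FPKM in Control. The sensors were rare beside them, ERN1 at 2.14 ± 0.119 FPKM in ENZ and 1.88 ± 0.0647 FPKM in Control and EIF2AK3 at 1.12 ± 0.029 FPKM in ENZ and 1.41 ± 0.0942 FPKM in Control. Over the 34 members the Spearman correlation of log2 fold change with mean FPKM was -0.22, which describes genes that share the same 6 libraries.

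GC content moved with the fold changes, over all tested genes (Spearman's rho 0.34, n = 18538 genes) and over the members (0.37, n = 34 genes). Among the 9 members with a transcript under 40% GC, 9 were called lower, against 40.1% of all tested genes in that range. Of the 23 members between 40% and 60% GC, 17 were called lower, against 16.7% of tested genes there. Of the 2 members over 60% GC, SDF2L1 was lower and CREB3L1 higher. With offsets for GC content and transcript length, 26 members were called lower and 5 higher. All chaperones except DNAJB9 and all isomerases and oxidases except ERO1A were among those lower.

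Other genes tied to ER functions or to the stress response were examined in 11 lists chosen by function, holding 196 tested genes that are not members. Not all of them encode proteins of the ER. Together 67 of them were called lower (34.2%) and 47 higher (24.0%), with a median log2 fold change of -0.03. Over all tested genes 19.3% were called lower and 20.5% higher, the shares to set beside the counts of each list. In a list of other disulphide isomerases with related oxidases and peroxidases, 8 of 20 were lower and 3 higher. PDIA5 (-0.71), TXNDC16 (-0.49) and DNAJC10 (-0.45) were lower, and the oxidases QSOX1 and QSOX2 were among those higher. A list of HSPA5 cofactors, ER prolyl isomerases and related genes, not all of which act on HSPA5, had 9 lower and 2 higher of 21. FKBP7 (-1.46, at 1.59 CPM in ENZ and 4.41 CPM in Control) and DNAJB14 (-0.66) were lower and FKBP9 (0.57) higher. The higher count in that list was 5 without ENZ replicate 1 and 1 without ENZ replicate 2 or 3 or Control replicate 1 or 3.

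A list for the calnexin cycle and glycan trimming also held cargo receptors, so not all its genes belong to that cycle. In it 7 of 15 genes were lower (46.7%, against 19.3% of all tested genes) and 0 higher (1 without ENZ replicate 1). Those lower included LMAN1, a cargo receptor for glycoproteins (-0.45), and the folding sensors UGGT2 (-0.42) and UGGT1 (-0.36). Of 12 oligosaccharyltransferase subunits 8 were lower and 3 higher, KRTCAP2 (-0.52) and MAGT1 (-0.31) lower and OST4 (0.27) higher. The higher count was 1 without ENZ replicate 3 or Control replicate 3. Other translocation and signal peptidase genes had 10 lower and 4 higher of 27, with SEC61A2 (-0.43), SPCS3 (-0.37) and SSR1 (-0.34) lower. COPII coat and KDEL receptor genes had 9 lower and 3 higher of 22, SEC31B (-0.40), SEC24D (-0.28) and MIA3 (-0.24) lower. These counts rested on single libraries: 4 were lower without ENZ replicate 2 or Control replicate 1, and the number higher was 5 without ENZ replicate 1, 0 without Control replicate 1 and 1 without ENZ replicate 2 or 3 or Control replicate 3.

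The other ER-associated degradation genes moved both ways, with 9 lower and 10 higher of 29, DERL3 (-0.60) and YOD1 (-0.56) lower and RNF185 (0.52) higher. Genes of ER calcium handling had 4 lower and 3 higher of 14 (28.6% and 21.4%), near the 19.3% and 20.5% of all tested genes. Their median log2 fold change was 0.003. ATP2A1 (-0.38) and the calcium pump ATP2A2 (-0.30) were lower and the channel ORAI1 (0.44) higher. ER-phagy receptors had 1 lower and 5 higher of 9, RETREG1 (-0.39) lower and RETREG2 (0.34) and CALCOCO1 (0.34) higher. Without ENZ replicate 2 or 3 or Control replicate 1 or 3, 3 were higher, and without ENZ replicate 1, 2 were lower. Of 17 other regulators of the response 2 were lower and 6 higher, and 1 was lower without ENZ replicate 3 or Control replicate 1 or 2. The secretory transcription factor BHLHA15 (MIST1) was lower (-0.69), at 8.54 CPM in ENZ and 13.7 CPM in Control, and the NF-Y subunit NFYC (0.27) and ATF6B (0.22) were higher.

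Genes listed by function for the PERK, ATF4 and CHOP branch were higher more often than lower, while EIF2AK3 itself was called lower (-0.29). Activity of EIF2AK3 was not measured, and these data do not show which signal acted on the listed genes. Of 14 genes of the PERK, ATF4 and CHOP branch 9 were called higher and 0 lower, with a median log2 fold change of 0.26. The share higher was 64.3%, against 20.5% of all tested genes. The list had a median GC content of 57.19%, against 47.98% over all tested genes. Of all tested genes, 36.2% were called higher over 60% GC and 21.1% between 40% and 60%. The number higher stayed within the limit for moved counts given below in all 18 alternatives, GC and length offsets among them. How far the rises followed GC content was not tested. ATF4 itself, also counted among the regulators, rose by 0.15 (adjusted p = 0.00204), while DDIT3 (CHOP) was not called at -0.11 (adjusted p = 0.171). DDIT4, an inhibitor of mTOR signalling, rose by 0.92 (150.3 CPM in ENZ and 79.3 CPM in Control), CHAC1, a glutathione-degrading enzyme, by 0.79, and the cell death gene BBC3 (PUMA) by 0.56. Whether the list differed from the members was not tested.

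**Figure D4:**
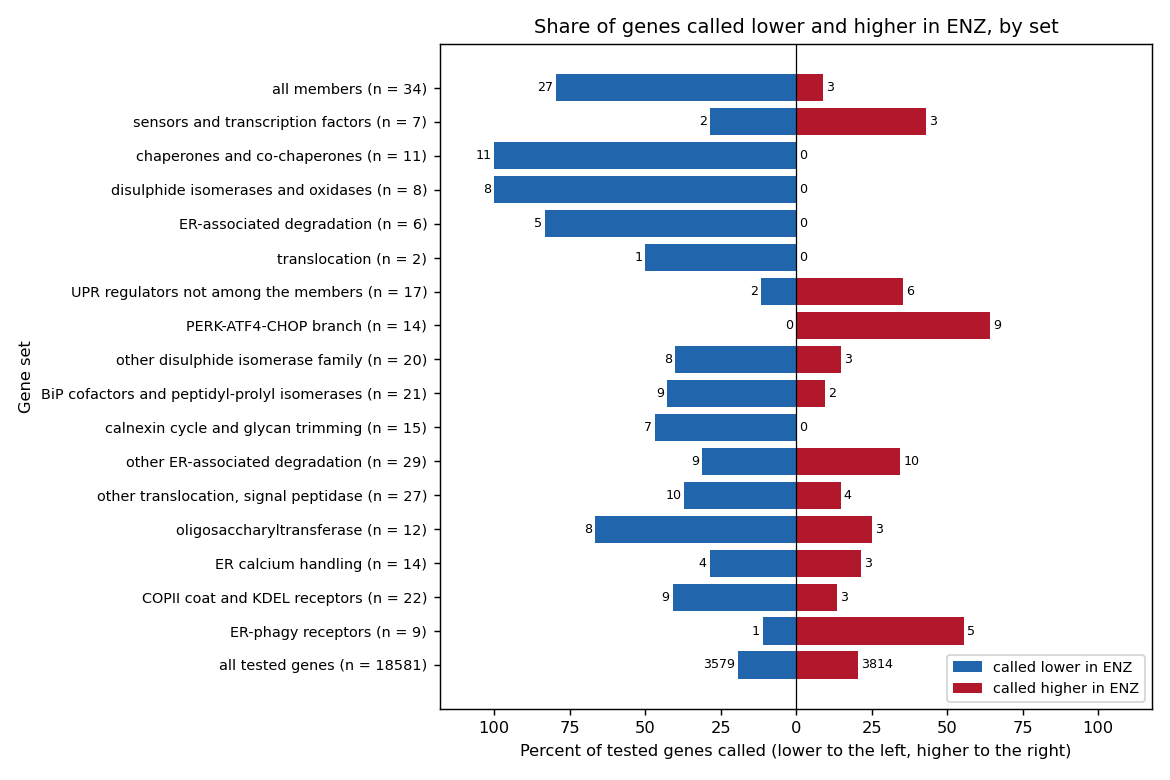
Percent of tested genes called lower (left) and higher (right) in ENZ in each role of the members, in each of the 11 other lists and over all 18581 tested genes, with the number of called genes at each bar. All 11 chaperones and all 8 isomerases and oxidases were called lower, and 9 of 14 genes of the PERK, ATF4 and CHOP branch were called higher.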

How the data were processed

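Raw counts and FPKM values (fragments scaled by gene length and library total) were deposited by the authors for the same 37923 genes. HISAT2 2.0.5, HTSeq 0.6.1, DESeq2 1.20.0 and GRCh38 are named in the submitters' processing notes. Annotation release, strand setting and filters are not stated there. Per the labels' protocols, poly(A) RNA was made into libraries with a kit that does not mark strand, so overlapping genes are uncertain. Besides the members named above, this holds for DNAJB11 with TBCCD1 (mean counts 2263.83 and 839.0) and CRELD2 with ALG12 (6806.67 and 932.33). It also holds for PDIA6 with ATP6V1C2 (8649.83 and 322.5), among others. The deposited FPKM equalled count over library total and 1 length per gene to within 4.37e-06 percent, over genes with at least 10 counts.

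Counts were tested with edgeR 4.0.16 (R 4.3.3): TMM factors, default expression filter, robust quasi-likelihood F test, Benjamini-Hochberg adjustment over 18581 genes, calls at an adjusted p under 0.05. The standard error is the absolute log2 fold change over the square root of F. CPM values use TMM-scaled totals. The steps were tested on simulated data, where the share of false calls among edgeR's calls was above the nominal level, so calls near the threshold are less certain. Alternatives used limma 3.58.1 (voom, and log2 FPKM), DESeq2 1.42.0, other scalings and filters, a replicate block, GC and length offsets and each library left out. GC content is that of the longest GENCODE release 44 transcript, and 9849 genes without a symbol held 0.875% of counts.

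Per-library values were given for HSPA5, XBP1, the 3 sensors, up to 4 called members with the largest changes in each role and members called against their role's majority, and from each other list up to 3 called genes. Members, lists and tests were chosen with earlier results of these data known. Protein features were not used here. One marker gene is not reported here and was left out of its list. Replicates are separate samples by the series design; what separated them is not given, so p-values reflect only the spread among these samples, which may be technical. Pairs within a group differed by more than sampling noise (chi-square per degree of freedom 1.99 to 6.77). Intervals at 0 counts cover counting error only.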

Additional observations from a re-analysis of the deposited data

How the results depend on the processing

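Over 18 alternatives, 25 of the 30 called members kept their call and direction in each one that tested them (ERO1B was tested in 16). The count of members called lower ran from 26 to 28 and included 11 chaperones in all but 1 alternative (10 with GC and length offsets). Members called higher numbered 5 with GC and length offsets, alone or with the replicate block, and the count for translocation was then 1, since SEC61B was called. Members called lower among sensors numbered 1 on unfiltered log2(FPKM + 1) values. Leaving out 1 library at a time gave 26 to 28 members lower, 3 higher, and for translocation 0 to 1 lower, with 0 without Control replicate 3. XBP1 changed sign under DESeq2 (0.003), with GC and length offsets (0.11), with the block and those offsets (0.109), without ENZ replicate 1 (0.013) and without Control replicate 3 (0.002), and ran from -0.021 to 0.013 with 1 library left out. EDEM2 did so with GC and length offsets, with and without the block (-0.026). Over all genes, 2005 were called lower on unfiltered log2(FPKM + 1) values, and 1723 higher. With a mean of at least 1 FPKM, 2526 were higher on log2(FPKM + 1) and 2520 on log2(FPKM + 0.1), over fewer genes tested. On library totals alone 4104 were lower and 3097 higher. On unfiltered log2(FPKM + 1) values 24 genes of the other lists were called higher, against 47. Of 396 counts of single lists under alternatives, 63 moved by over 1.5 times. Most often these were the numbers called higher among COPII and KDEL receptor genes (12 of 18 alternatives), in the list with HSPA5 cofactors (9) and among ER-phagy receptors (9, and 7 for lower). The number lower among the other regulators moved in 9. The causes were not tested. Replicate numbers did not pair the samples (correlation of deviations between same-numbered libraries -0.0459 to 0.0181); with the replicate block 27 members were lower and 3 higher. Depth limits mainly AGR3, with 31 counts in its lowest library.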
